A study of Mus musculus with 4 samples.

Results

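The proteases that cut the extracellular matrix and cell surface proteins, and the tissue inhibitors of metalloproteinases (TIMPs) that block them, were followed in 3T3-L1 adipocytes, which are fat cells obtained in culture from a line of mouse fibroblasts. The members were all genes named Mmp, Timp, Adam or Adamts with a number on the array, each read from its brightest probe on average and kept when the scanner software called that probe well above background on each of the 4 arrays. Of 78 genes with such a name, 37 met this rule, among 18253 of 34795 array genes that did. The cells received daidzein (25 uM), a soy isoflavone, together with PT (100 ug/ml), an extract of pig testis, or PT alone, or daidzein alone, or PBS, for 7 days. All 4 groups share the cell line and the differentiation step, and each was read on 1 single-colour (Cy3) array of 60-base probes. With 1 array per group no difference has a replicate check and no p-value is given.

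Matrix metalloproteinases (MMPs) are zinc enzymes, mostly secreted as inactive precursors, that cut collagens, gelatin, proteoglycans and other proteins outside the cell. ADAM proteins are membrane-anchored relatives that release growth factors, cytokines and receptors from the cell surface, and ADAMTS enzymes are secreted relatives that process procollagens and cut large proteoglycans such as versican. TIMPs occupy the active site of these enzymes. In fat tissue, this system remodels the matrix around preadipocytes and growing adipocytes.

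The promoters of Mmp3 and Mmp13 are shown because these genes lie close together on chromosome 9 and their daidzein differences had opposite signs, and that of Timp4 because it was the inhibitor with the largest differences. Capitals mark the AP-1 motif TGANTCA in Mmp3 and Mmp13, and CTTCCT, the reverse complement of the ETS motif AGGAAG, in Timp4. Each runs 5′ to 3′ on the gene's strand from 250 bases before to 50 bases after the gene start in RefSeq (GRCm38.p6).
Mmp3 (chr9:7445572-7445871, + strand): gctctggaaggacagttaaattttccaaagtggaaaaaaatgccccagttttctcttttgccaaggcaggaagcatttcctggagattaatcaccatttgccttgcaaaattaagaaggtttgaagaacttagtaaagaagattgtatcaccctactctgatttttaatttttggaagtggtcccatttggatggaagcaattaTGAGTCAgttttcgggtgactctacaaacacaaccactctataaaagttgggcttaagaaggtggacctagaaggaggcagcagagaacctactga
Mmp13 (chr9:7272264-7272563, + strand): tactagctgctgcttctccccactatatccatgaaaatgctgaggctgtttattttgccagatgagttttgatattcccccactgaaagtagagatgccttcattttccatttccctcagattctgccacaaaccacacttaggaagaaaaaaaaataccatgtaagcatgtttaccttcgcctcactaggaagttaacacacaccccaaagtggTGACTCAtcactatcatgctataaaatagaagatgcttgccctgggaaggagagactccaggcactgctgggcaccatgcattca
Timp4 (chr6:115252156-115252455, - strand): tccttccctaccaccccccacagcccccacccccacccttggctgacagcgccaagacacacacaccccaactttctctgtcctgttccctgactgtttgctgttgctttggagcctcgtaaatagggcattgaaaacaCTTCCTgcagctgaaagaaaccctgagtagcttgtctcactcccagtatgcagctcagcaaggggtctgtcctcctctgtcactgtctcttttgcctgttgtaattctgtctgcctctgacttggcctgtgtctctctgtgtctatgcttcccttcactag

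The AP-1 match began 46 bases before the start of Mmp3 and 35 bases before that of Mmp13. The motif was searched on both strands, on which it reads the same, and the ETS motif likewise as AGGAAG or CTTCCT. RefSeq promoters matched 22 of the 37 members, with 25 promoters in all. TGANTCA was in 3 of the 25 (Mmp3, Mmp13 and Adam19), against 7.81% of 32851 promoters of the same length. The ETS motif was in 10 of the 25, against 35.4% of all promoters. Mmp3 (1 match) and Mmp13 (2 matches) are among these 10, and their ETS matches are left in small letters above. A match describes the letters of this window and is not evidence of a bound site.

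The array sequence of 1 member is shown because it crosses a splice junction, though it does not fix which transcript was read. The Adam12 probe used here lies on chromosome 7 from 141079625 to 141081861 on the minus strand (mm9). Its 60 bases span 2237 bases of the genome, so it crosses a splice junction.
Adam12 probe: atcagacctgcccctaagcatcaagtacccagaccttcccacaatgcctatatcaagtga

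Between 49.7% and 51.4% of probes were well above background and no spot was saturated. All levels below are log2 signal relative to the 75th percentile of the same array (361 for daidzein+PT, 419 for PT, 405 for daidzein and 371 for PBS), so 0 is that percentile, and levels of different genes are not compared. The difference between both pairs of a treatment gave the only measure of error between arrays. It corresponds to an SD of a log2 difference of 0.33 for dim genes (the lowest 6084 by signal), 0.14 for middle genes (the next 6084) and 0.11 for bright genes (the top 6085), and it counts any true dependence of one treatment on the other as error. Among the members, 13 were dim, 11 middle and 13 bright. The PT and daidzein+PT arrays lay in row 2 of the slide and the daidzein and PBS arrays in row 1, so PT and slide row cannot be told apart.

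The adipocyte label was checked against marker genes. All 6 adipocyte markers (Adipoq, Plin1, Cidec, Cfd, Fabp4 and Lpl) were well above background on every array, and their summed scaled signal was 1076 for daidzein+PT, 282 for PT, 667 for daidzein and 148 for PBS. The 6 preadipocyte and fibroblast markers were also read on every array. Their summed signals were 577 for daidzein+PT, 689 for PT, 551 for daidzein and 699 for PBS. In daidzein+PT over PBS 1 of the 6, Ly6a, was at least 1.5-fold lower (log2 difference -0.83), against 3.08% of all genes. The others lay between -0.46 (Thy1) and 0.12 (Col1a1). Of the macrophage markers, Ptprc and Emr1 were above background on no array, and Itgam, Csf1r, Cd68 and Lyz1 were on all 4. The list's summed signal ranged from 28.7 to 31.1. Of this list, Lyz1 was at least 1.5-fold higher in daidzein+PT than in PBS (0.75), against 5.65% of all genes. The 4 endothelial markers summed to 10.3 to 11.4 with Cdh5 and Tek above background on no array and Kdr and Pecam1 on all 4. The germ cell markers summed to 0.21 to 0.30, with Ddx4, Tnp1 and Tnp2 above background on no array and the dim Prm1 and Prm2 at 0.60 and 0.62 in daidzein+PT over PBS, and those of Sertoli and Leydig cells to 8.46 to 9.32, with Amh and Star above background on no array and Cyp17a1 and Sox9 on all 4.

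Of the 37 members, 3 were at least 1.5-fold higher in daidzein+PT than in PBS (5.65% of all genes were) and 7 were at least 1.5-fold lower (3.08% of all genes). Timp4, Adam12 and Adamts15 were higher, and Mmp3, Mmp9, Mmp2, Mmp17, Adam8, Adam1a and Adamts7 were lower. The 3 higher members are 8.11% of the members and the 7 lower are 18.9%. Below 0 were 26 of 37 members, or 70.3%, against 56.5% of all genes. The median member stood at -0.19, against -0.04 for all genes, and 27 members lay within 1.5-fold. Over all 78 genes of the rule, with no filter on dim probes, the median was 0.02. Of these 78 genes, 32 were well above background on no array, and the matching median of all genes is not given. In these bulk RNA data, fewer cells of a type and less RNA per cell cannot be told apart.

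**Figure D1:**
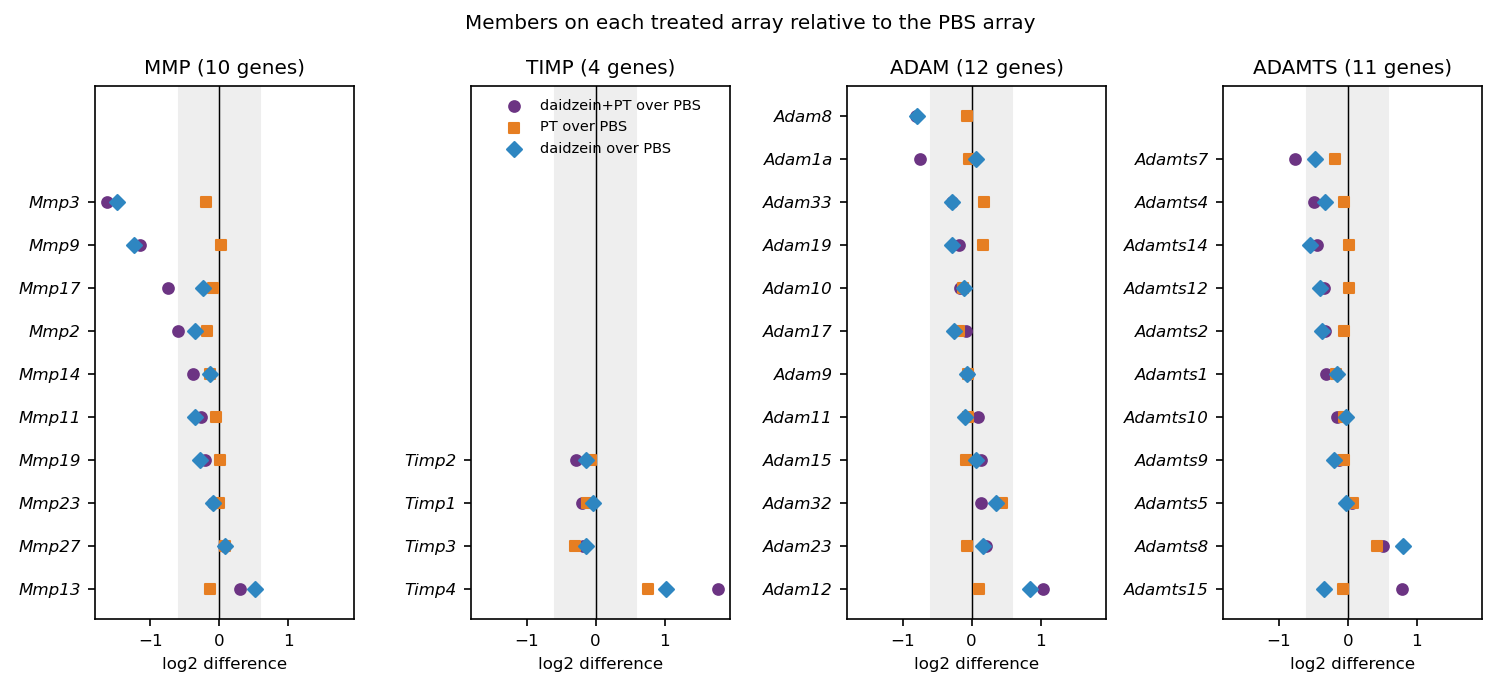
Log2 difference from the PBS array for the 37 members (rows) in 4 panels by family, with circles for daidzein+PT, squares for PT and diamonds for daidzein, and a grey band for differences within 1.5-fold. Circles and diamonds of Mmp3 (-1.63 and -1.48) and Mmp9 (-1.15 and -1.23) lie left of the band while their squares lie near 0, and all 3 symbols of Timp4 (1.78, 0.75 and 1.02) lie to its right.

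The other 4 comparisons had fewer members past 1.5-fold. In PT over PBS, 1 member was at least 1.5-fold higher (2.25% of all genes) and 0 were lower (0.586% of all genes), and 36 of 37 lay within 1.5-fold. In daidzein over PBS, 3 members were higher (3.03% of all genes) and 3 were lower (2.25% of all genes). In daidzein+PT over daidzein, 2 members were higher (2.61% of all genes) and 1 was lower (0.898% of all genes). In daidzein+PT over PT, 3 members were higher (4.74% of all genes) and 5 were lower (3.48% of all genes). Normexp background correction, a model-based alternative to the scanner software's own subtraction, also added an offset of 50 to every signal. The offset alone draws differences of dim genes towards 0. With normexp, the higher counts were 0 in PT over PBS (0.866% of all genes), 1 in daidzein over PBS (1.52%) and 1 in daidzein+PT over daidzein (1.35%). The lower counts with it were 0 in daidzein+PT over daidzein (0.126%) and 3 in daidzein+PT over PT (1.55%). The median member was at -0.05, -0.14, -0.01 and -0.13 in these 4 comparisons, in the order given, against -0.03, -0.03, 0.00 and -0.01 for all genes. These comparisons share arrays with each other and with daidzein+PT over PBS.

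Daidzein over PBS and daidzein+PT over PT share no array, and both measure daidzein. In both pairs 3 members, Mmp3, Mmp9 and Adam8, were at least 1.5-fold lower, or 8.11% of the members against 0.953% of all genes. Adam12 and Timp4 were at least 1.5-fold higher in both, which is 5.41% of the members against 1.99% of all genes. At 2-fold, Mmp3 and Mmp9 were lower in both pairs (0.159% of all genes were) and Timp4 was higher (0.893% of all genes). Below 0 in both pairs were 24 of 37 members, or 64.9%, against 37.8% of all genes. PT over PBS and daidzein+PT over daidzein also share no array. Timp4 alone was at least 1.5-fold higher in both of these (0.663% of all genes), and 0 members were lower in both (0.0712% of all genes).

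**Figure D2:**
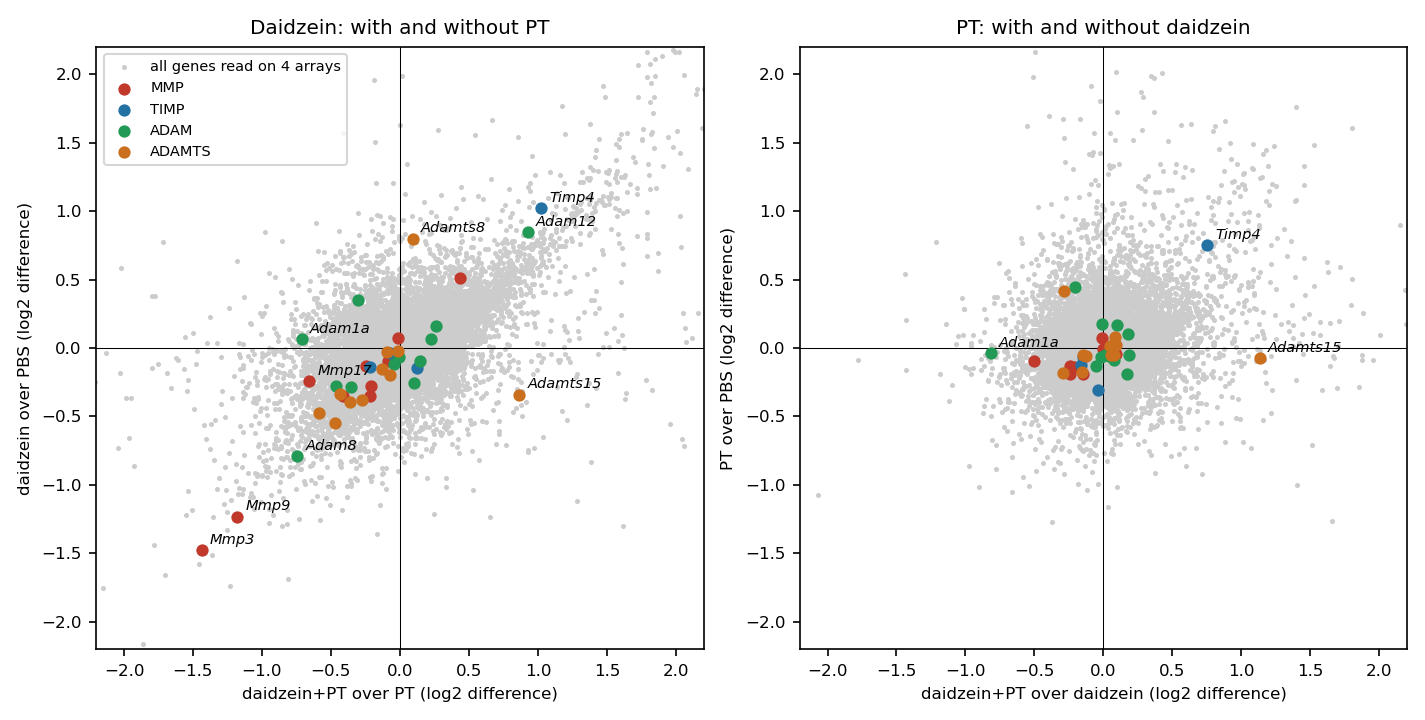
Left, daidzein over PBS (y) against daidzein+PT over PT (x); right, PT over PBS (y) against daidzein+PT over daidzein (x), both as log2 differences, with grey points for all 18253 genes inside the axes and coloured points for the members by family. Mmp3 (-1.48 and -1.44) and Mmp9 (-1.23 and -1.18) lie at the lower left of the daidzein panel, and Timp4 (0.75 in each PT pair), Adamts15 (-0.07 and 1.13) and Adam1a (-0.04 and -0.82) are labelled in the PT panel.

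Among the secreted MMPs, Mmp3, a stromelysin that cuts proteoglycans and activates other MMP precursors, had the largest difference. Its log2 level was -0.54 in daidzein+PT, 0.90 in PT, -0.39 in daidzein and 1.09 in PBS. Both arrays with daidzein were low and both without it were high. Daidzein over PBS was -1.48 and daidzein+PT over PT was -1.44, which is 2.79-fold and 2.71-fold lower and 10.5 and 10.2 times the SD of a difference at this signal (0.14). The PT differences were -0.19 without daidzein and -0.15 with it. The probe lies on chromosome 9 from 7455751 to 7455810 on the plus strand (mm9).

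Mmp9, gelatinase B, which cuts denatured collagen and type IV collagen, was also split by daidzein. Its log2 level, a mean over 10 spots, was -2.02 ± 0.15 in daidzein+PT, -0.84 ± 0.09 in PT, -2.10 ± 0.10 in daidzein and -0.87 ± 0.08 in PBS (SD over spots of 1 array, n = 10 spots, technical error only). The lowest of the 10 spots in PT was at -1.01 and in PBS at -1.0, and the highest in daidzein+PT was at -1.78 and in daidzein at -1.95, so the spots of arrays with and without daidzein did not overlap. Daidzein over PBS was -1.23 and daidzein+PT over PT was -1.18, or 3.77 and 3.62 times the SD among dim genes (0.33). With normexp they were -0.87 and -0.78. The probe lies on chromosome 2 from 164780620 to 164780679 on the plus strand (mm9).

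Mmp2, gelatinase A, is made by fibroblasts and is activated at the cell surface by Mmp14 together with Timp2. Its log2 level was 6.08 in daidzein+PT, 6.49 in PT, 6.33 in daidzein and 6.68 in PBS. The daidzein+PT array was lowest and the PBS array highest. The difference in daidzein+PT over PBS was -0.60, 5.26 times the SD for bright genes, and daidzein alone gave -0.35 and PT alone -0.19. Mmp14, a membrane-type MMP, had log2 levels of 4.08 in daidzein+PT, 4.32 in PT, 4.32 in daidzein and 4.45 in PBS. The daidzein+PT array was again lowest and PBS highest, with a difference in daidzein+PT over PBS of -0.38, within 1.5-fold.

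Mmp13, the main interstitial collagenase of rodents, stood apart in sign. Its log2 level was -1.39 in daidzein+PT, -1.82 in PT, -1.18 in daidzein and -1.69 in PBS. Both arrays with daidzein were above both without it, by 0.51 in daidzein over PBS and 0.43 in daidzein+PT over PT, or 1.56 and 1.33 times the SD among dim genes, and neither reached 1.5-fold. Its probe lies 172930 bases from that of Mmp3, in a run of 10 MMP genes between 7282762 and 7697700 of chromosome 9 (mm9). Of these 10, Mmp13, Mmp3 and Mmp27 were read on all arrays and the other 7 (Mmp12, Mmp1b, Mmp1a, Mmp10, Mmp8, Mmp20 and Mmp7) were above background on no array. Mmp27 had differences of 0.06 in daidzein+PT over PBS, 0.07 in PT over PBS and 0.07 in daidzein over PBS.

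Mmp17, a membrane-type MMP with a lipid anchor, was near background. Its log2 level was -3.92 in daidzein+PT, -3.27 in PT, -3.42 in daidzein and -3.17 in PBS. The daidzein+PT array was lowest, at -0.75 from PBS or 2.29 times the SD, and this difference was -0.20 with normexp. The other MMPs read on all arrays lay within 1.5-fold in every comparison. Mmp11, an MMP activated inside the cell by furin, had -0.26 in daidzein+PT over PBS and -0.35 in daidzein over PBS. Mmp19 had -0.20 and -0.27 in the same comparisons, and Mmp23 had -0.09 in each. Over the 10 MMP members the median difference was -0.32 in daidzein+PT over PBS, -0.07 in PT over PBS and -0.26 in daidzein over PBS. The medians of all genes were -0.04, -0.03 and -0.03 in the same order. In daidzein+PT over PBS, 8 of 10 MMP members were below 0, against 56.5% of all genes.

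**Figure D3:**
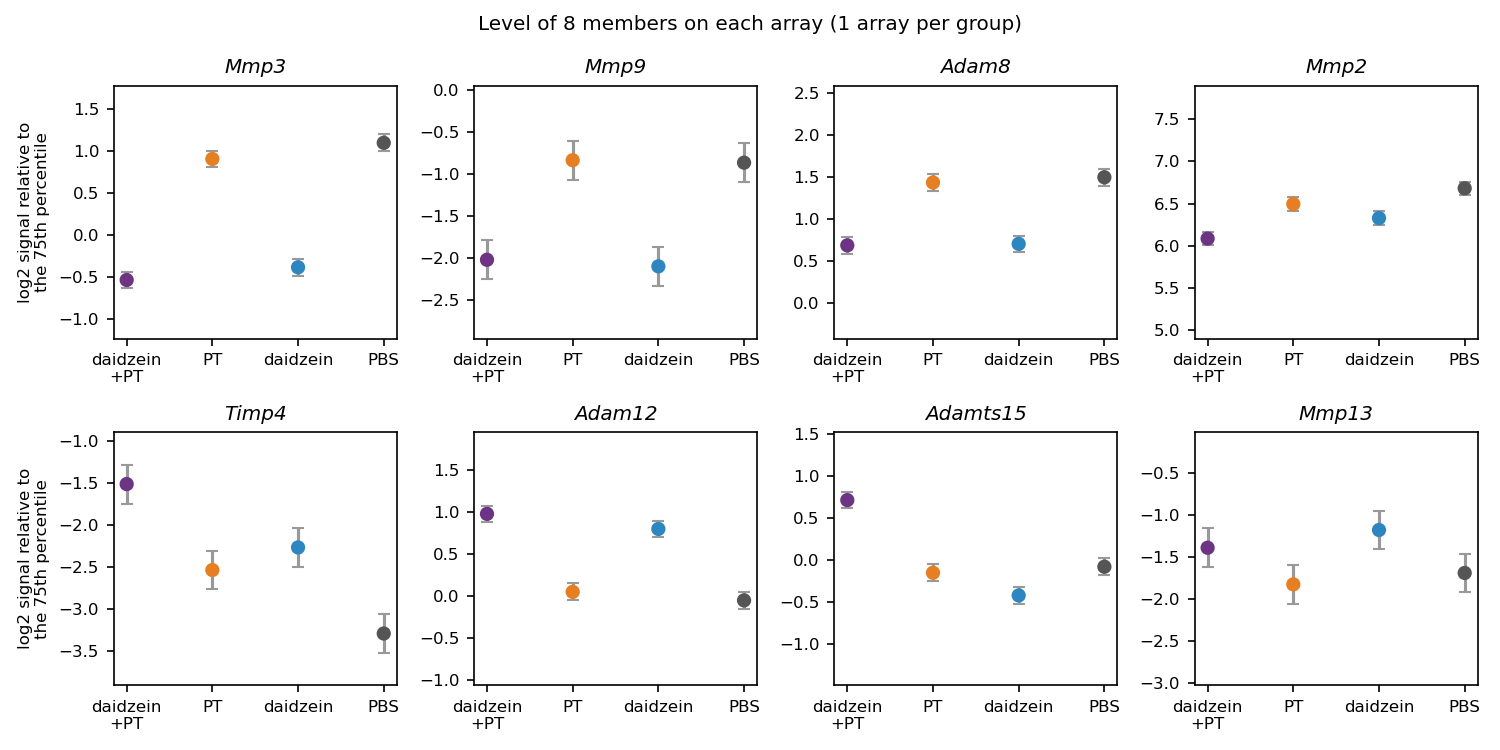
Log2 level relative to the array's 75th percentile (y) on the daidzein+PT, PT, daidzein and PBS arrays (x) for 8 members, 1 point per array, with bars for the SD of a level at that signal (the SD of a difference over the square root of 2) and y axes of equal span. Mmp3, Mmp9 and Adam8 were low on both arrays with daidzein, Timp4 was lowest in PBS (-3.29), and Adamts15 was high on the daidzein+PT array alone (0.71).

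All 4 TIMP genes were read on all arrays, and Timp4 was the one whose differences passed 1.5-fold. Timp4 is an inhibitor with a narrow tissue range that includes fat and heart, and its probe lies on chromosome 6 from 115196120 to 115196179 on the minus strand (mm9). Its log2 level was -1.52 in daidzein+PT, -2.54 in PT, -2.27 in daidzein and -3.29 in PBS, from processed signals of 126, 72.3, 84.2 and 37.9 in the same order. Every treated array was above PBS and the array with both agents was highest. Daidzein over PBS was 1.02 and daidzein+PT over PT was 1.02, while PT over PBS was 0.75 and daidzein+PT over daidzein was 0.75. The interaction, which is the PT difference with daidzein minus that without it, was -0.00154. Both pairs of each treatment thus gave the same difference to 2 decimals, which is finer than the error among dim genes (SD of a difference 0.33) can resolve. The interaction of Timp4 was 0.19 with normexp, 0.12 with quantile normalisation, 0.07 with cyclic loess and -0.0047 with outlier spots kept. Daidzein+PT over PBS was 1.78, or 3.42-fold higher and 5.44 times the SD among dim genes, while the single-agent differences were 3.13 (daidzein) and 2.31 (PT) times it.

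The size for Timp4 was smaller with normexp, whose offset of 50 compares with Timp4 signals of 37.9 to 126. The parts of the offset and of the background model in this were not separated. With normexp the differences were 0.97 in daidzein+PT over PBS, 0.31 in PT over PBS, 0.46 in daidzein over PBS, 0.51 in daidzein+PT over daidzein and 0.66 in daidzein+PT over PT. All stayed above 0, and those of daidzein+PT over PBS and over PT stayed past 1.5-fold. Timp4 was the only member at least 1.5-fold above PBS on all 3 treated arrays. The summed signal of the adipocyte markers had the same order of arrays (1076 for daidzein+PT, 667 for daidzein, 282 for PT and 148 for PBS), and its part in the Timp4 result was not tested.

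The other inhibitors differed little. Timp1, a secreted inhibitor that binds Mmp9 and its precursor, had log2 levels of 4.55 in daidzein+PT, 4.62 in PT, 4.71 in daidzein and 4.75 in PBS. Timp2, which bridges Mmp14 and the Mmp2 precursor, had 8.23 in daidzein+PT, 8.45 in PT, 8.38 in daidzein and 8.52 in PBS. Timp3, which binds to the matrix and also blocks Adam17 and several ADAMTS enzymes, had 1.24 in daidzein+PT, 1.12 in PT, 1.28 in daidzein and 1.42 in PBS. The treated arrays were below PBS by log2 differences from -0.04 to -0.30 for these 3. This order did not hold under every scaling, since PT over PBS of Timp2 was 0.02 with quantile normalisation and the authors' deposited table and 0.01 with cyclic loess, and daidzein over PBS of Timp1 was 0.00019 with cyclic loess. The daidzein+PT difference from PBS was -0.20 for Timp1, -0.29 for Timp2 and -0.18 for Timp3. The second probe of Timp2 gave -0.38.

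Among the membrane-anchored ADAMs, Adam8 and Adam12 had differences past 1.5-fold in both daidzein pairs, with opposite signs. Adam8, a sheddase best known from leukocytes, had log2 levels of 0.69 in daidzein+PT, 1.43 in PT, 0.70 in daidzein and 1.49 in PBS. Both arrays with daidzein were low. Daidzein over PBS was -0.79 and daidzein+PT over PT was -0.75, or 5.63 and 5.32 times the SD at this signal, and the PT differences were -0.06 and -0.02. Of the macrophage list, Ptprc and Emr1 were above background on no array, while Itgam, Csf1r, Cd68 and Lyz1 were read on all 4, and their part in the Adam8 result was not tested. The Adam8 probe lies on chromosome 7 from 147164873 to 147164932 on the minus strand (mm9).

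Adam12, known as meltrin alpha and linked in mice to muscle and fat cell formation, had log2 levels of 0.98 in daidzein+PT, 0.05 in PT, 0.80 in daidzein and -0.05 in PBS. Both arrays with daidzein were high. Daidzein over PBS was 0.85 and daidzein+PT over PT was 0.93, or 6.05 and 6.60 times the SD, and the PT differences were 0.10 without daidzein and 0.18 with it. Its 3 probes on all arrays gave 0.50 to 0.85 in daidzein over PBS and 0.65 to 1.09 in daidzein+PT over PT, so every probe was above 0 in both. The sequence printed above belongs to the brightest of the 3.

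The proteases of widest use at the cell surface differed little. Adam10, which sheds Notch and many other substrates, had -0.17 in daidzein+PT over PBS, and Adam9 had -0.05. Adam17, which releases tumour necrosis factor and several growth factors, had -0.09 in daidzein+PT over PBS and -0.25 in daidzein over PBS by its brighter probe. Its other probe gave 0.78 in daidzein over PBS, so no direction is given for Adam17. Adam15 had 0.14, Adam19 -0.19 and Adam33 -0.29 in daidzein+PT over PBS. Adam11 and Adam23, which lack a working protease site, had 0.09 and 0.20.

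Adam1a and Adam32, genes known from the testis and sperm of mice, were dim. Adam1a had log2 levels of -3.82 in daidzein+PT, -3.10 in PT, -3.00 in daidzein and -3.07 in PBS. The daidzein+PT array was lowest and the others lay between -3.10 and -3.00. The difference in daidzein+PT over PBS was -0.75 and over daidzein -0.82, with normexp values of -0.25 and -0.23. Adam32 had log2 levels of -1.86 in daidzein+PT, -1.55 in PT, -1.65 in daidzein and -2.0 in PBS. PBS was lowest and PT highest, with every pair of arrays within 1.5-fold. With the mean over both probes of Adam32, the other of which was well above background on 1 array, the differences were 1.18 in daidzein+PT over PBS, 0.96 in PT over PBS and 0.22 in daidzein+PT over PT. Over the 12 ADAM members the median difference was -0.07 in daidzein+PT over PBS, against -0.04 for all genes. Below 0 were 7 of 12, close to the 56.5% of all genes.

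Among the ADAMTS enzymes, Adamts15, which cuts versican and aggrecan, had the largest interaction of the members. Its log2 level was 0.71 in daidzein+PT, -0.15 in PT, -0.42 in daidzein and -0.08 in PBS. The daidzein+PT array was high and the other 3 were low. Daidzein+PT was above PBS by 0.79, above daidzein by 1.13 and above PT by 0.86, while PT over PBS was -0.07 and daidzein over PBS was -0.34. The interaction was 1.20, or 6.06 times the SD of an interaction at this signal. It rests on 1 probe, on chromosome 9 from 30707033 to 30707092 on the minus strand (mm9), with 1 spot per array. That spot lay at the edge of the array, in column 163 of 164. The 35 probes around that spot had a median interaction of 0.02, and the part of its place in the Adamts15 value was not tested.

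The interaction was positive by 1.5-fold or more in 1 member (2.41% of all genes), which was Adamts15, and negative in 3 (2.98% of all genes), which were Adam1a (-0.78), Adamts8 (-0.71) and Adam32 (-0.66). These 3 were dim, and each was within 1.69 times the SD of an interaction among dim genes. With normexp the interaction of Adam1a was -0.13 and that of Adam32 was -0.34, and the mean over probes gave -0.11 for Adam32. Adamts8, an enzyme of the same group as Adamts15 whose probe lies 43958 bases away on chromosome 9, had log2 levels of -3.98 in daidzein+PT, -4.07 in PT, -3.69 in daidzein and -4.49 in PBS. PBS was lowest and daidzein highest. Daidzein over PBS was 0.80, and with normexp it was 0.10 and the interaction turned to 0.09.

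Adamts7, which cuts cartilage oligomeric matrix protein, had log2 levels of -2.41 in daidzein+PT, -1.83 in PT, -2.12 in daidzein and -1.65 in PBS. The daidzein+PT array was lowest and PBS highest. The difference in daidzein+PT over PBS was -0.77, or 2.34 times the SD, and -0.41 with normexp. Adamts12, its close relative, had -0.35 in daidzein+PT over PBS and -0.40 in daidzein over PBS. Its other probe gave -0.82 and -0.44 in the same comparisons.

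The procollagen-processing enzymes Adamts2 and Adamts14 lay within 1.5-fold by their brightest probes. The second probe of Adamts2 gave -0.66 in daidzein+PT over PBS, past 1.5-fold. Adamts14 had -0.45 in daidzein+PT over PBS, 0.02 in PT over PBS and -0.55 in daidzein over PBS, and Adamts2 had -0.32, -0.05 and -0.38. Both arrays with daidzein were thus below both without it for each gene. The proteoglycan-cutting enzymes Adamts1, Adamts4, Adamts5 and Adamts9 had -0.31, -0.48, 0.06 and -0.12 in daidzein+PT over PBS. The probes of Adamts4 disagreed in sign there (-0.48 and 0.06), as did those of Adamts5 (0.06 and -0.14). Adamts10, which acts on fibrillin microfibrils, had -0.15. Over the 11 ADAMTS members the median difference was -0.31 in daidzein+PT over PBS, against -0.04 for all genes. Below 0 were 8 of 11, against 56.5% of all genes.

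**Figure D4:**
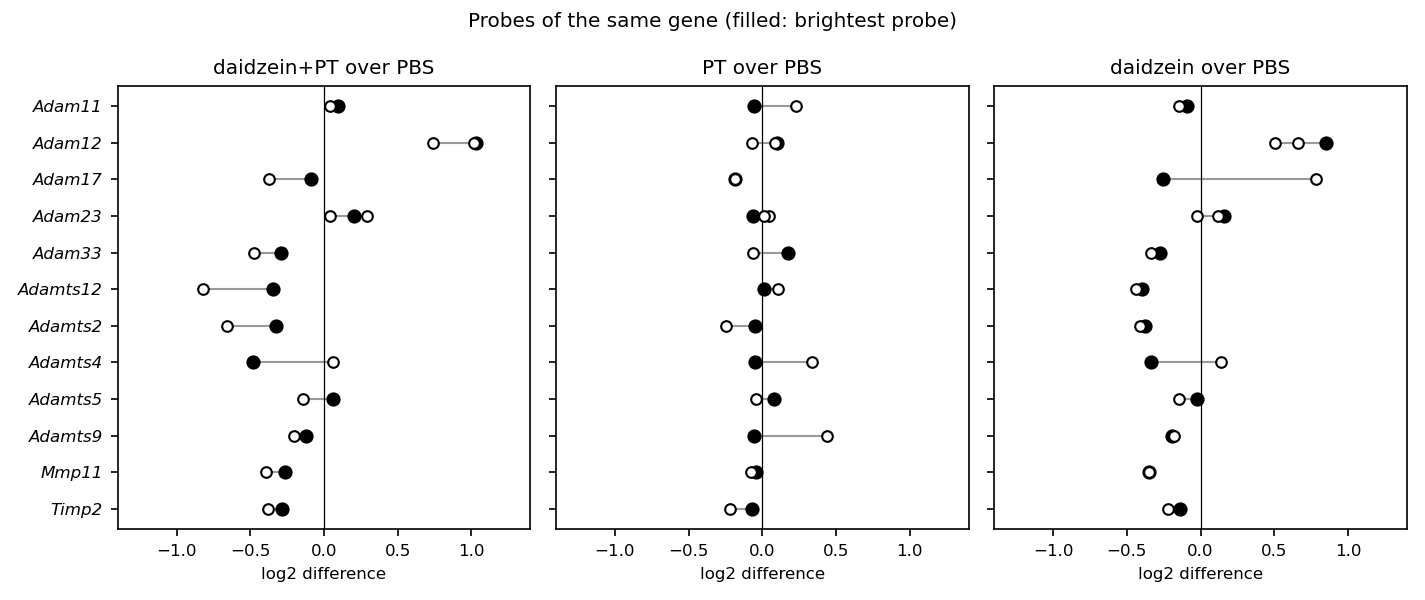
Log2 differences from PBS on the daidzein+PT, PT and daidzein arrays (x) for every probe well above background on all arrays of the 12 genes (rows) that have at least 2 such probes, with the brightest probe filled. In daidzein+PT over PBS all probes lay on 1 side of 0 for 10 of the 12, the exceptions being Adamts4 and Adamts5, and the Adam17 probes lay at -0.25 and 0.78 in daidzein over PBS.

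The array held 116 probes of the 78 genes, 51 of them well above background on all arrays. Besides the 37 members, 9 genes were well above background on some arrays and 32 on none. By family, 10 of 23 MMP, 4 of 4 TIMP, 12 of 32 ADAM and 11 of 19 ADAMTS genes were members. The 32 genes not well above background on any array were 12 MMP genes, 15 ADAM genes, many of them known from the testis (such as Adam2, Adam3 and Adam18), and 5 ADAMTS genes. At the edge of the rule, Adamts8 was the dimmest member. Just outside it, Adamts6 was well above background on 3 arrays, with log2 levels of -4.00 in daidzein+PT, where it was not well above background, -3.20 in PT, -3.26 in daidzein and -2.78 in PBS. Its signal was thus 2.34-fold lower in daidzein+PT than in PBS. This is the difference between the signals on these arrays and not a lower bound. Its daidzein+PT signal was above the dimmest signal called well above background on that array (-4.35).

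Adamts20 was well above background on the PT array alone, with log2 levels of -6.59 in daidzein+PT, -2.29 in PT, -6.93 in daidzein and -6.94 in PBS. This puts it at least 5.31-fold higher in PT than in PBS, from 1 spot per array. Some probes were well above background on 1 array alone and at least 8-fold brighter there than on each of the others. They numbered 356 on daidzein+PT, 314 on PT, 74 on daidzein and 31 on PBS, of 55676. On daidzein+PT 322 of the 356 and on PT 290 of the 314 lay in the first 128 rows of spots. The part of this in the Adamts20 value was not tested. The other 7 genes read on some arrays (Adam21, Adam22, Adam26b, Adam5, Adam6b, Adamts17 and Mmp24) had no bound of 1.5-fold between a treated array and PBS by their brightest probe.

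Other proteases and partners were read from lists of named genes. In the plasminogen system, which makes plasmin and through it activates MMP precursors, 3 of the 5 genes read on all arrays were at least 1.5-fold lower in daidzein+PT than in PBS (3.08% of all genes) and 0 were higher (5.65% of all genes). Plau, the urokinase, had -1.04 in daidzein+PT over PBS, -0.75 in PT over PBS and -0.80 in daidzein over PBS. In daidzein+PT over PT it had -0.29, within 1.5-fold. Plaur, its receptor, had -0.87, -0.12 and -0.80, with -0.75 in daidzein+PT over PT. Serpine2, an inhibitor of these proteases, had -0.62, 0.18 and -0.20, with -0.80 in daidzein+PT over PT. Plau and Serpine2 were dim (SD of a difference 0.33), and no normexp values are given for them. The list's median was -0.62 in daidzein+PT over PBS, against -0.04 for all genes.

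The cathepsins, lysosomal and secreted proteases, had 0 of 6 genes past 1.5-fold in daidzein+PT over PBS, their inhibitors 0 of 2, and the other matrix proteases and regulators, which include Bmp1 and Reck, 0 of 11. The iRhom and tetraspanin partners, which carry Adam17 and Adam10 to the cell surface, had 0 of 5, and of the proteoglycan substrates only Vcan was read on all arrays, at -0.44. Of all genes, 5.65% were higher and 3.08% lower in daidzein+PT over PBS. Lists this short cannot tell 0 or 1 gene from these shares. Among the ligands that ADAM proteases shed, 1 of 5 was higher and 0 lower. That was Nrg4, a growth factor made by fat cells. Its log2 level was -1.31 in daidzein+PT, -3.98 in PT, -2.16 in daidzein and -4.20 in PBS, so that daidzein+PT over PBS was 2.89. Nrg4 was dim (SD of a difference 0.33). Its PT and PBS levels lay near the dimmest signals called well above background on those arrays (-4.55 and -4.69). No normexp value is given for Nrg4. Of the 7 AP-1 subunit genes, 1 was lower (3.08% of all genes) and 0 higher (5.65% of all genes) in daidzein+PT over PBS. That was Fosl1, with differences of -0.74 in daidzein+PT over PBS, -0.32 in PT over PBS and -1.18 in daidzein over PBS. In daidzein+PT over PT it had -0.42, within 1.5-fold. Fosl1 was dim (SD of a difference 0.33), and no normexp value is given for it.

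The members differed in how far their values held when the processing changed. Of the 10 members at 1.5-fold or more in daidzein+PT over PBS, Mmp3, Mmp9, Adam8, Mmp2, Timp4, Adam12 and Adamts15 stayed past 1.5-fold wherever an alternative changed their value, which 5 of the 7 did (6 for Adam12). Mmp2 did so by a small margin, with values from -0.624 to -0.586 beside a cut of 0.585 on the log2 scale. Leaving out the filter cannot change a member's own value, nor can the mean over probes for a gene with 1 probe. The 3 dim members Mmp17, Adam1a and Adamts7 fell within 1.5-fold with normexp background correction. The lower count then was 4, with 1.23% of all genes lower under that correction, in place of 7 with 3.08%.

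**Figure D5:**
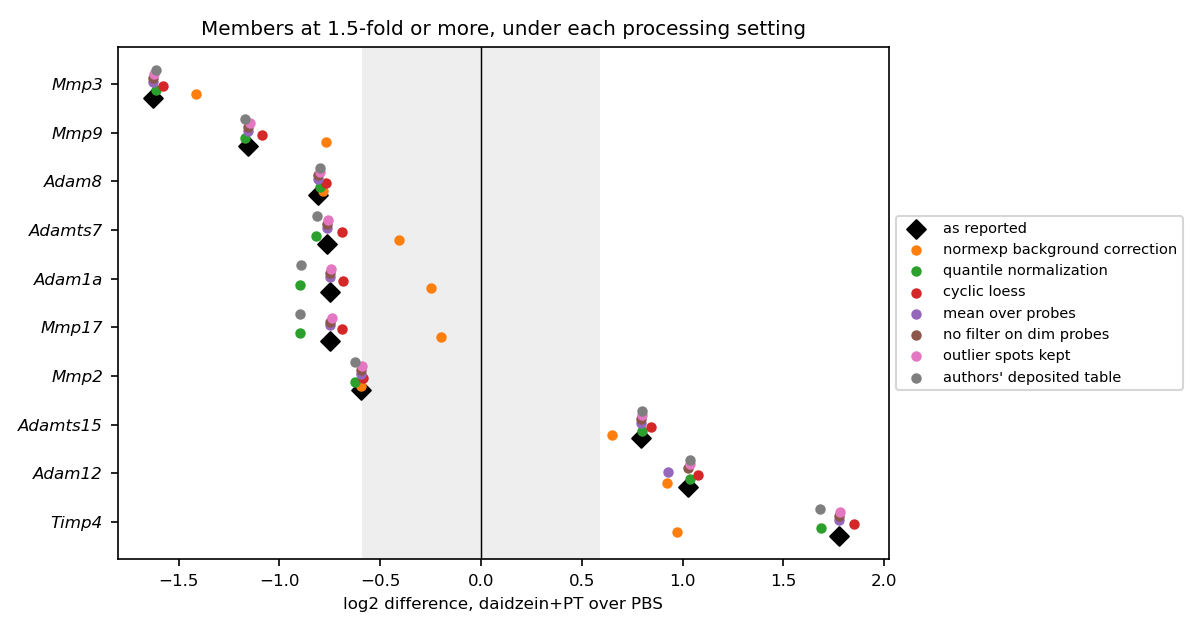
Log2 difference in daidzein+PT over PBS (x) for the 10 members at 1.5-fold or more (rows), as reported (diamond) and under each of 7 processing alternatives (coloured circles, some equal to the reported value by construction), with a grey band for differences within 1.5-fold. Normexp background correction moved Timp4 to 0.97 and brought Adamts7 (-0.41), Adam1a (-0.25) and Mmp17 (-0.20) inside the band, while Mmp3 stayed between -1.63 and -1.41.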

How the data were processed

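Total RNA of 3T3-L1 adipocytes was labelled with Cy3 and hybridised to 1 Agilent array per group, 4 arrays on 1 slide. The processed signal is an intensity on a linear scale that Feature Extraction had corrected for background before the authors deposited it, per the file headers. The headers name Feature Extraction 10.7.1.1 and the submitters' processing notes 9.5.1.1. The deposited value table also holds an intensity on a linear scale, quantile normalised as read from its values, and served as an alternative only.

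Control spots and outlier spots (106 to 173 per array) were left out of 59305 spots. The deposited intensity was put on the log2 scale, the array's 75th percentile was subtracted and spots of 1 probe were averaged (R 4.3.3, limma 3.58.1, Python 3.11.15, pandas 2.3.3). Replicate spots of 432 probes had a median SD of 0.083 to 0.086. A gene stands for its brightest probe. Differences of 1.5-fold or more (0.585 on the log2 scale) were counted beside their share among all genes, with no test, since each group has 1 array. The spread of the interaction over genes, scaled to a difference of a pair of arrays, was the measure of error. The number of arrays limits the precision. The procedure was tested on simulated data.

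Probe positions are those of the files (mm9); exon and UTR status was not analysed here. Of the 37 members, 36 had an accession in the RefSeq table and 0 had another symbol there. Values on every array are given for Mmp2, Mmp3, Mmp9, Mmp13, Mmp14, the TIMPs, members at 1.5-fold in both pairs of a treatment, in daidzein+PT over PBS or in the interaction, and genes at the edge of the rule. Listed genes are named when at 1.5-fold in both pairs of a treatment or in daidzein+PT over PBS, at most 3 a list. The members and lists were chosen with earlier results of these data known. The counts of probes bright on 1 array alone and the medians around single spots were added after the values were seen. Alternatives were normexp background correction (offset 50), quantile normalisation, cyclic loess, the mean over probes, no filter on dim probes, outlier spots kept, and the deposited value table.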

Additional observations from a re-analysis of the deposited data

Results flagged for a closer look

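Adamts15 had opposite daidzein differences without and with PT. Daidzein+PT over PT was 0.86 and daidzein over PBS was -0.34 on the log2 scale, with 1 array in each group, and this difference between the pairs was not tested.

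Signal outside the comparisons of the members appeared on the PT array alone. The Adamts20 probe, well above background on that array only, was at least 5.31-fold higher in PT than in PBS. A second Adam22 probe, which was not the one used for that gene, was also well above background on the PT array only and was at least 6.03-fold higher in PT than in PBS. Each rests on 1 spot per array. Of 55676 probes, 314 were well above background on the PT array alone and at least 8-fold brighter there than on each of the others.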

How the results depend on the processing

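Of 105 member counts and medians under 7 alternatives, 85 stayed within tolerance and 20 counts moved by over 1.5 times. The tolerance was 1.5 times for counts and 0.217 for medians, which is wider than any reported median over all members. Of 35 medians, 4 changed sign: that of daidzein+PT over PBS was 0.023 with no filter, and that of daidzein+PT over daidzein was 0.0075 with normexp, 0.010 with cyclic loess and 0.075 with no filter. With normexp background correction the higher counts were 0 in PT over PBS (0.866% of all genes), 1 in daidzein over PBS (1.52%) and 1 in daidzein+PT over daidzein (1.35%), and the lower counts were 4 in daidzein+PT over PBS (1.23%), 3 in daidzein+PT over PT (1.55%) and 0 in daidzein+PT over daidzein (0.126%). With no filter on dim probes the higher counts were 7 in daidzein+PT over PBS, 8 in PT over PBS, 9 in daidzein over PBS, 6 in daidzein+PT over PT and 6 in daidzein+PT over daidzein. The lower counts were 13, 7, 5, 13 and 8 in the same order, over all 78 genes of the rule, so more genes entered. Of the 78 genes, 32 were well above background on no array. The share of all genes is not given for this setting, so these counts cannot be weighed against it. The mean over probes gave 3 higher in PT over PBS and 2 lower in daidzein+PT over daidzein. Quantile normalisation (1.41% of all genes lower) and the authors' deposited table each gave 2 lower in daidzein+PT over daidzein. No share of all genes is given for the mean over probes or the deposited table. Of 32 values of named members past 1.5-fold, 19 stayed past it under every alternative that could change them. The interaction of Adamts8 turned from negative to 0.086 with normexp. Over all genes, quantile normalisation placed 1.67% higher and 1.49% lower in PT over PBS, where the 75th percentile placed 2.25% and 0.586%. The cause of these shifts was not tested. No paired analysis was possible because each group has 1 array, and leaving out a replicate was not possible for the same reason. Dim members have an SD of a difference of 0.33, so differences of theirs near 1.5-fold are less than 2 such SDs.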
